A study of Sus scrofa with 21 samples.

Results

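The genes described here encode mitochondrial ribosomal proteins. They were chosen by name alone: a gene was a member when its name in the scanner files was written in capitals as MRPL or MRPS followed by a digit. The rule found 45 genes on 66 probes, out of 47030 distinct names on 60305 probes. Of the 45 genes, 28 carry a large subunit name (MRPL) and 17 a small subunit name (MRPS). After the 25% of probes with the lowest mean were left out, 43 members remained for testing among 34511 features. MRPS9 and MRPS35 did not pass, each with 1 dim probe under these names.

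Whole blood RNA was measured on a one-colour Agilent pig array, with 1 array per pig, to compare 2 breeds of pig. The DD pigs (SLAdd, 10 arrays from 5 litters) belong to an inbred line of minipigs that is homozygous at the swine leukocyte antigen (SLA) locus, the pig major histocompatibility complex. The LW pigs (Large White, 11 arrays from 6 litters) belong to a commercial breed. All the pigs were 60 days old, were fed a standard diet at will and received no treatment, so that breed and line cannot be told apart. The arrays lay on 3 chips, each of which held both breeds. Littermates were always on different chips.

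The mitochondrial ribosome translates the few proteins that mitochondrial DNA still encodes, all of them subunits of the oxidative phosphorylation complexes. All of its own proteins are encoded in the nucleus, made in the cytosol and imported. Some descend from the proteins of the bacterial ribosome, while others were added in mitochondria. In whole blood the RNA comes mostly from leukocytes, platelets and young red cells, because mature red cells have no mitochondria or ribosomes. Fewer cells of a type and less RNA per cell cannot be told apart in such samples.

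Each probe is an oligonucleotide of about 60 bases, and most members rest on a single one: 33 of 45 had 1 probe on the array. The probes below are those of MRPL42 and MRPL17, the largest differences among the members, and of the members called higher. Also given are those of genes whose probes or spellings disagree, except MRPL4 and mRpL4. Those of MRPL35 and MRPL49 were added because each holds one of the motifs searched. They are given 5′ to 3′ as the array's files list them. Capitals mark AATAAA, the usual polyadenylation signal, or TTTATT, the same letters on the opposite strand, and a sequence with no capitals holds neither.
MRPL42 (A_72_P073546): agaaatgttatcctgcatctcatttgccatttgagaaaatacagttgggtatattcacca
MRPL17 (O14707): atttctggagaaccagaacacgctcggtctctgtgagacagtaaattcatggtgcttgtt
MRPL35 (A_72_P315623): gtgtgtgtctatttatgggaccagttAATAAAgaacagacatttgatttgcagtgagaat
MRPL49 (O12673): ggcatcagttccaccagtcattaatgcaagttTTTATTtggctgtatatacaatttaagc
MRPS26 (O14773): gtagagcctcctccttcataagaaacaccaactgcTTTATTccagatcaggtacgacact
MRPL22 (O10757): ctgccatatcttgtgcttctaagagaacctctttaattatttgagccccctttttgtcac
MRPL40 (A_72_P153326): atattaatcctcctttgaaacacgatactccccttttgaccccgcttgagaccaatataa
mrpl40, in lower case (O12799): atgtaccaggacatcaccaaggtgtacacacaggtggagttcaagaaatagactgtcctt
MRPL14 (O14234): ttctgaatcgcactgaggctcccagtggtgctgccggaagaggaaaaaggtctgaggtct
MRPL14 (A_72_P397013): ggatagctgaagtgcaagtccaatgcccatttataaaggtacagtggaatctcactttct
MRPL47 (O8845): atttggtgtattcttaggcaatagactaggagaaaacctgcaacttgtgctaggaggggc
MRPL47 (A_72_P156826): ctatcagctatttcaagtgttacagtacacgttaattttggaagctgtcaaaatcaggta
MRPL24 (A_72_P406288): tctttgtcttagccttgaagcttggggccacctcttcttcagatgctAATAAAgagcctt
MRPL24 (A_72_P607258): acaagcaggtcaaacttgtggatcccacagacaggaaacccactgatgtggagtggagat
Mrpl24, in mixed case (O5392): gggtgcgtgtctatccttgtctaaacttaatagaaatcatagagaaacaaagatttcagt
AATAAA was found in 11 of the 66 member probes (16.7%) and in 10.3% of all probes, and TTTATT in 2 of 66 (3.03%) and in 4.32% of all. Those 2 are the MRPS26 probe and the MRPL49 probe. No transcript or genome sequence was used here, so the strand and the position of a probe were not checked. A match is only a description of the letters.

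Most members were slightly lower in the blood of DD pigs. The deposited log2 values were fitted by a linear model of breed and chip, in which pigs of 1 sow could correlate. Here 38 of the 43 differences (DD minus LW) were below 0, against 55.2% of all features. The median difference was −0.19 on the log2 scale over the members and −0.05 over all features. Past an adjusted p of 0.05 (limma, Benjamini-Hochberg over all features), 9 members were lower in DD pigs, or 20.9%, where 9.80% of all features were, and 3 were higher, or 6.98%, where 11.4% of all features were. At an unadjusted p under 0.05 there were 17 lower and 4 higher, where 18.7% of all features were lower and 18.1% higher. With the 75th percentile of each array as its scale, in place of quantile normalization, 5 members were lower and 3 higher and the median was −0.14. That scaling moved the median of all features by 0.10, to 0.06, and their calls from 3383 lower and 3930 higher to 2210 and 4900. Among features named by a RefSeq symbol, a background closer to the members, 11.9% were called lower and 10.3% higher.

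**Figure D1:**
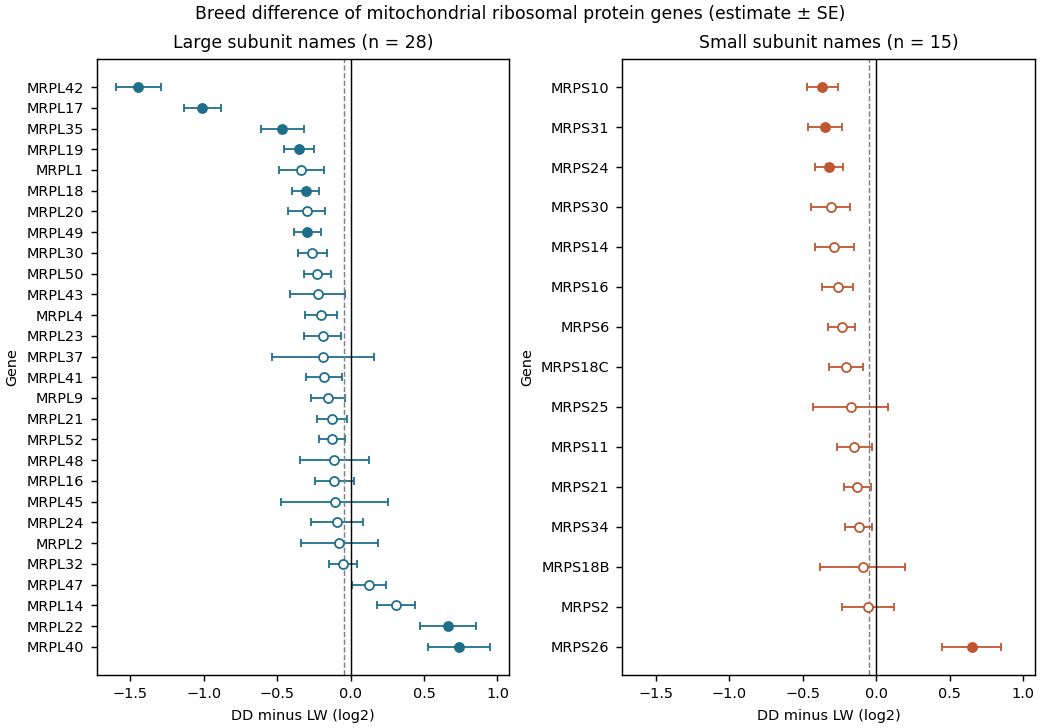
Difference between breeds (DD minus LW, log2) of the 43 tested members, with the standard error as a bar, for 28 large and 15 small subunit names. Filled points passed an adjusted p of 0.05, and the dashed line is the median of all features at −0.05. Of the points, 38 lie left of 0, and MRPL42 and MRPL17 lie farthest left.

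The brightness of the arrays differed between the breeds. The files do not settle whether brightness comes from the hybridization or follows the RNA of the pigs, so a value with brightness in the model may also leave out a part of the breed difference. Array brightness (on the log2 scale, the 75th percentile of an array's processed intensities) ran from 6.56 to 8.49 over the DD arrays (median 7.64) and from 7.37 to 8.62 over the LW arrays (median 8.41). Its breed means differed little on chip 1 (7.95 in DD and 8.02 in LW pigs), more on chip 2 (7.55 and 8.31) and most on chip 3 (7.09 and 8.36). For the chip with the widest gap, the authors reported a technical bias at quality assessment. They left it in the normalized values and handled it through the chip term of their model. Whether that bias and the gap in brightness are linked was not tested. With brightness added to the model as a covariate, 2 members remained past the threshold, MRPL42 and MRPL17, and the median over the members was −0.04 (all features: 0.01). In that model 1.23% of all features were called lower and 0.956% higher.

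The clearest member was MRPL42, a large subunit protein found only in mitochondrial ribosomes. Its log2 value ran from 8.29 to 10.1 in DD pigs, with a median of 9.18, and from 10.2 to 11.0 in LW pigs, with a median of 10.6. Each of the 10 DD pigs lay below each of the 11 LW pigs. No other member separated the breeds fully, and 0.278% of all features did so in this direction. The difference was −1.45 ± 0.15 (SE, limma, adjusted p = 2.42e-06), or 2.73-fold lower in DD pigs. Over litters, the exact two-sided permutation test of chip-corrected means gave p = 0.00216, the smallest that 462 divisions of 5 and 6 litters allow. The chip-corrected values did not overlap between the breeds either, so this p follows from the separation above and adds no further evidence. Within the chips the difference was −1.32, −1.29 and −1.80, in their order. With brightness in the model it was −1.28 ± 0.20 (SE, limma, adjusted p = 0.000898). The gene lies at chromosome 5, 89631613 to 89661775 (Sscrofa11.1, as RefSeq places it), and its single probe was well above background on every array.

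MRPL17, the mitochondrial form of a bacterial large subunit protein, came next. Its log2 value ran from 7.73 to 9.00 in DD pigs (median 8.62) and from 8.97 to 9.71 in LW pigs (median 9.60). Of the 10 DD pigs, 9 lay below the lowest LW pig. The remaining DD pig, on chip 1, overlapped only that one. The difference was −1.01 ± 0.13 (SE, limma, adjusted p = 2.19e-05), or 2.02-fold lower, and it was −0.76, −1.06 and −1.22 on chips 1, 2 and 3. With brightness it was −0.76 ± 0.14 (SE, limma, adjusted p = 0.00437). MRPL17 lies on chromosome 9, 3075986 to 3077859, and also rests on 1 probe.

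The other 7 members that were called lower had small differences, between −0.46 and −0.29, and the breeds overlapped in each. Of the large subunit, these were MRPL35, MRPL19 and MRPL18, which have bacterial counterparts, and MRPL49, which has none. Of the small subunit, MRPS10 and MRPS24 have bacterial counterparts and MRPS31 does not. MRPL35 had the largest of these differences, with log2 values from 6.82 to 8.14 in DD pigs (median 7.27) and from 7.11 to 8.32 in LW pigs (median 7.83). Its difference was −0.46 ± 0.15 (SE, limma, adjusted p = 0.0319). MRPS10 ran from 8.92 to 9.73 in DD pigs (median 9.04) and from 9.04 to 9.92 in LW pigs (median 9.59), and differed by −0.37 ± 0.10 (SE, limma, adjusted p = 0.0222). The number of DD pigs below the lowest LW pig went from 1 for MRPL19 to 5 for MRPS10. All 10 DD pigs nevertheless lay below the LW median for MRPL19 and MRPL18.

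Of the remaining genes called lower, MRPL19 differed by −0.35 ± 0.10, MRPS31 by −0.35 ± 0.12, MRPS24 by −0.32 ± 0.10, MRPL18 by −0.30 ± 0.09 and MRPL49 by −0.29 ± 0.09 (SE, limma, adjusted p from 0.0252 to 0.0375). All 7 were lower in DD pigs on each chip, with the largest gap on chip 3. Once brightness was in the model none of them passed the threshold, and their differences were between −0.29 for MRPL35 and −0.04 for MRPS31 (limma, adjusted p from 0.62 to 0.979). MRPL35 and MRPS31 also did not pass it when the sow was left out of the model.

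The 3 members that were higher in DD pigs behaved otherwise. MRPL40, which has no bacterial counterpart, ran from 6.10 to 9.53 in DD pigs (median 7.13) and from 5.77 to 7.70 in LW pigs (median 6.76), a difference of 0.74 ± 0.21 (SE, limma, adjusted p = 0.0234). MRPL22, whose bacterial counterpart lines the exit tunnel of the ribosome, ran from 8.09 to 10.5 in DD pigs (median 8.84) and from 7.25 to 9.64 in LW pigs (median 8.61), a difference of 0.67 ± 0.19 (SE, limma, adjusted p = 0.0226). MRPS26, a small subunit protein added in mitochondria, ran from 7.61 to 10.3 (median 9.06) and from 7.51 to 9.22 (median 8.42), a difference of 0.65 ± 0.20 (SE, limma, adjusted p = 0.0303). In all 3 genes most DD pigs lay inside the LW range, and the DD values spread more widely, with an SD of 1.11 against 0.70 for MRPL40.

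The DD pigs above the LW range were mostly those of chip 3. There the differences were 1.42 for MRPL40, 1.27 for MRPL22 and 1.34 for MRPS26, while on chip 1 they were −0.03, −0.05 and 0.33. Adding brightness gave differences of 0.0008 for MRPL40, 0.09 for MRPL22 and 0.20 for MRPS26, none past the threshold (limma, adjusted p from 0.901 to 0.999). Without the arrays of chip 3, none of the 3 passed either, at 0.48, 0.41 and 0.32 (limma, adjusted p from 0.484 to 0.59).

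**Figure D2:**
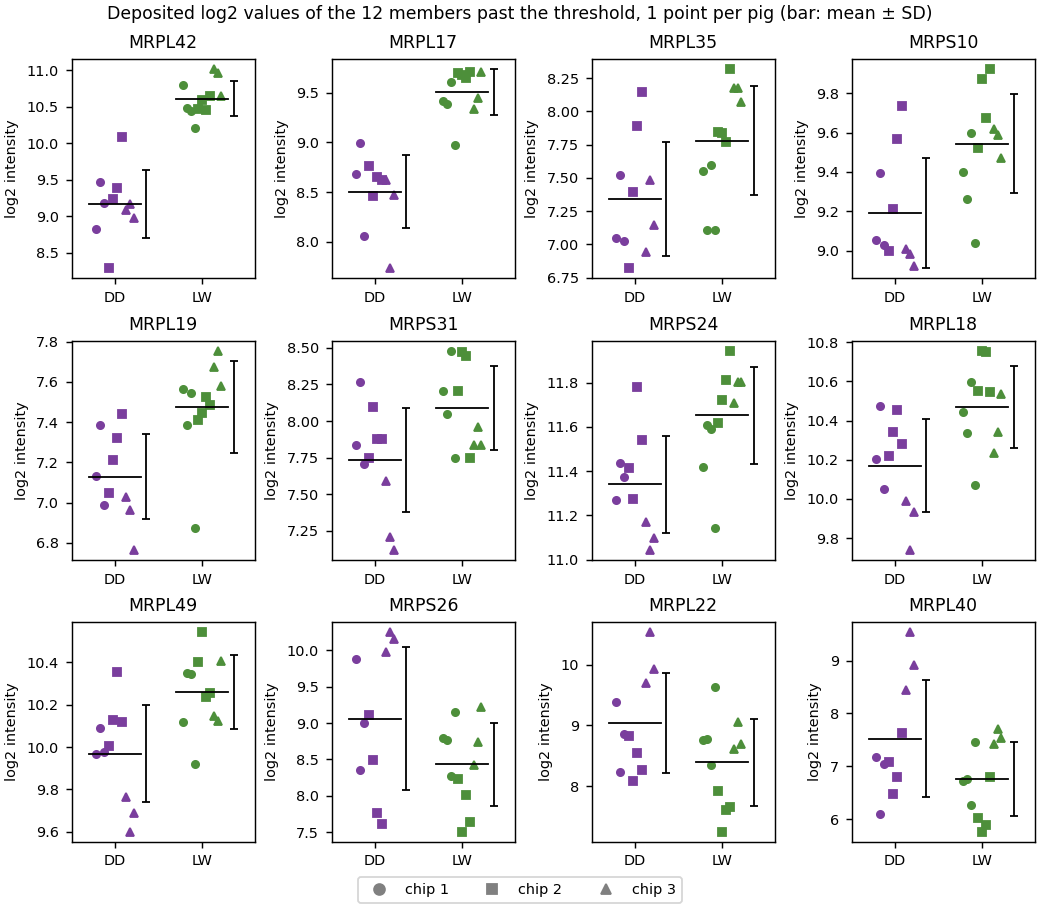
Deposited log2 intensity of the 12 members past the threshold, 1 point per pig, with DD pigs on the left of each panel and LW pigs on the right, the chip as the shape of the point, a line at the mean and a bar for the SD. The 10 DD and 11 LW pigs do not overlap for MRPL42, while for MRPS26, MRPL22 and MRPL40 the highest points are DD pigs of chip 3.

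The 31 other tested members did not pass the threshold. They lay between −0.34 and 0.31. MRPL1, the protein of the mobile stalk that flanks the site where spent tRNA leaves in bacterial ribosomes, had −0.34 ± 0.15, and MRPL14, at the face between the subunits, had 0.31 ± 0.13. The standard errors of MRPL37, MRPL45, MRPL48, MRPL2, MRPS18B and MRPS25 were between 0.24 and 0.36, against 0.15 for MRPL42, so that differences of their size could not be told from 0. MRPL37, MRPL45, MRPS18B and MRPS2 were not well above background on every array. MRPS18B and MRPS2 were well above background on 6 of 10 DD and 10 of 11 LW arrays. MRPL37 and MRPL45 were so on 9 DD arrays and all LW arrays.

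MRPS18B lies at chromosome 7, 23166314 to 23172718, within the span of 22824137 to 25182665 that holds the 21 SLA genes of the RefSeq table, the locus at which DD pigs are homozygous. Its log2 value ran from 4.26 to 7.09 in DD pigs (median 6.43) and from 4.65 to 7.18 in LW pigs (median 6.67). The difference was −0.09 ± 0.29 (SE, limma, adjusted p = 0.843), with the breeds overlapping almost throughout.

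Large and small subunit members had similar shares of calls. Of 28 large subunit members, 6 were lower (21.4%) and 2 higher (7.14%), with a median difference of −0.19. Of 15 small subunit members, 3 were lower (20.0%) and 1 higher (6.67%), with a median of −0.20. Over all features the shares were 9.80% lower and 11.4% higher. MRPS30 is a small subunit protein by name but sits in the large subunit, and moving it left the medians at −0.19 and −0.19. By descent, 27 members with a bacterial counterpart had 6 lower (22.2%) and 1 higher (3.70%) and a median of −0.20. The 16 found only in mitochondrial ribosomes had 3 lower (18.8%) and 2 higher (12.5%) and a median of −0.18.

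Both subunits moved most on chip 3. The medians for chips 1, 2 and 3 were −0.04, −0.21 and −0.41 over large subunit members and −0.10, −0.20 and −0.37 over small subunit members. Over all features the chip medians were 0.002, −0.02 and −0.11. On all 3 chips, 19 members were below 0 and 2 above. Of the 12 called members, 10 kept 1 sign on all chips, the exceptions being MRPL22 and MRPL40. The chip with the largest member differences was also the one with the widest gap in brightness. It is the chip for which the authors reported a technical bias. After adding brightness the medians were −0.02 for the large and −0.09 for the small subunit.

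**Figure D3:**
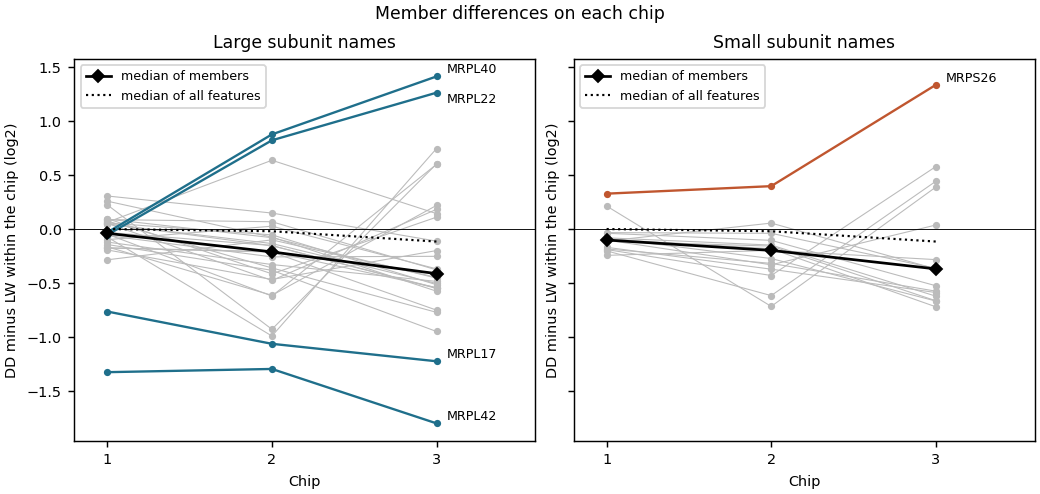
Difference between breeds (DD minus LW, log2) of each tested member within chip 1, 2 and 3, for large and small subunit names. Lines join the values of 1 gene, black diamonds are the medians of the members and the dotted line is the median of all features. The member medians go from −0.04 to −0.41 (large) and from −0.10 to −0.37 (small) between chip 1 and chip 3, while MRPL42 and MRPL17 lie low on every chip.

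**Figure D4:**
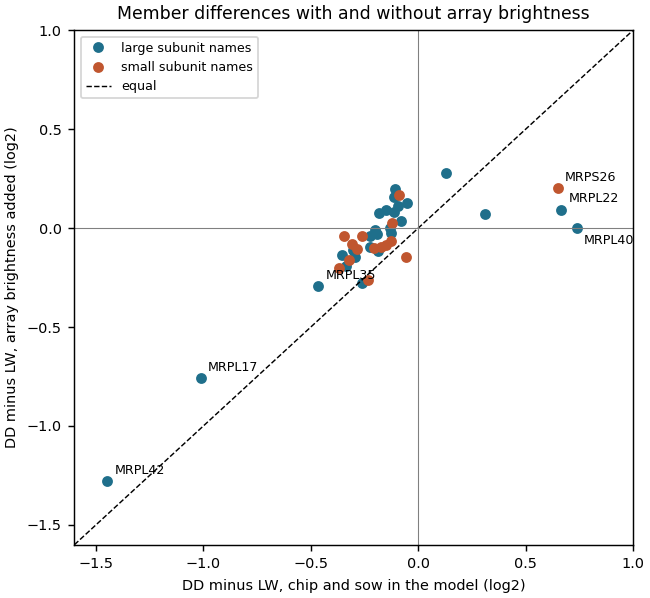
Difference between breeds (log2) of the 43 tested members in the model with chip and sow (horizontal axis) and in the same model with array brightness added (vertical axis), coloured by subunit name. MRPL42 and MRPL17 lie lowest on both axes, the dashed line marks equal values, and MRPS26, MRPL22 and MRPL40 drop to between 0.0008 and 0.20.

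Single pigs showed the same shift. For each pig, the chip-corrected deviation of each member from the LW mean was taken, and the median over the 43 members ran from −0.37 to 0.01 in DD pigs (median −0.16) and from −0.33 to 0.20 in LW pigs (median −0.001). The breeds overlapped. The highest DD value came from DD pig 06, the brightest DD array at 8.49, and the lowest from DD pig 21, the dimmest array of all at 6.56. Among LW pigs the lowest value, −0.33, came from LW pig 07, the dimmest LW array at 7.37. Not all pigs followed this order. The highest LW value, 0.20, came from LW pig 24, whose brightness of 8.04 was below the LW median of 8.41. DD pig 16, at 7.22 and below the DD median of 7.64, had −0.11. A link between these values and brightness was not tested. The same median over all features ran from −0.16 to 0.03 in DD pigs and from −0.12 to 0.06 in LW pigs.

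Where a gene had several probes, they mostly gave the same direction. Of the 63 member probes that passed the filter, 16 were lower and 5 higher in a fit of single probes, in which 21.7% of all probes were called in either direction. In 9 of the 11 members with 2 or more such probes, every probe was below 0. These probes are not all independent: the 2 of MRPS18C are identical, and 2 of the 3 of MRPL52 share at least 25 bases. All 6 MRPL18 probes lay between −0.32 and −0.28, 4 of them past the threshold, although 4 of the 6 share at least 25 bases and a pair of those is identical. All 6 MRPS31 probes lay between −0.44 and −0.26, with 3 past the threshold. The MRPS31 probe A_72_P744185, not past it, was well above background on only 6 DD and 9 LW arrays. MRPS10 had −0.37 and −0.36, both past the threshold.

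MRPL14 and MRPL47 were the exceptions. The MRPL14 probe O14234 was higher in DD pigs by 0.68 ± 0.21 (SE, limma, adjusted p = 0.0285), while A_72_P397013 had −0.06 ± 0.09 (SE, limma, adjusted p = 0.663). Both were well above background on all arrays. The MRPL47 probe O8845 had 0.49 ± 0.11 (SE, limma, adjusted p = 0.00726), but it was not well above background on any array, so it gives no measured level in either breed. The other MRPL47 probe, which was well above background on all, had −0.24 ± 0.16 (SE, limma, adjusted p = 0.293).

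The array also spells mitochondrial ribosomal protein names in lower or mixed case, on 22 names outside the rule, of which 20 were tested. Of these, 2 were lower (10.0%, against the 9.80% of all features) and 0 were higher (limma, adjusted p), with a median of −0.18. At an unadjusted p under 0.05, 5 were lower and 1 higher. In all, 17 of the 20 differences were below 0. The mRpS31 probe repeats the sequence of an MRPS31 probe and had −0.37 ± 0.11. A probe named Mrps9 was kept, where the MRPS9 probe was not, and had −0.16 ± 0.12. A probe named mrps18a, a protein that sits in the large subunit despite its name, had 0.40 ± 0.25.

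Some of these spellings differed from the member of the same name in size or in sign, as was seen only after their values were known. The Mrpl24 probe O5392 had the largest difference of any mitochondrial ribosomal protein name, −1.77 ± 0.22 (SE, limma, adjusted p = 2.48e-05). Its log2 value ran from 4.48 to 6.53 in DD pigs (median 4.90) and from 6.24 to 7.52 in LW pigs (median 6.95). It was well above background on 6 of 10 DD and on all 11 LW arrays, and its difference was −1.58, −1.49 and −2.36 on chips 1, 2 and 3. With brightness in the model it was −1.48 (limma, adjusted p = 0.00591). The MRPL24 probes A_72_P406288 and A_72_P607258 had −0.16 ± 0.09 and −0.03 ± 0.33, and neither passed the threshold. The files give all of these probes the description of mitochondrial ribosomal protein L24, but the sequences printed above share no stretch of 25 bases. For the first of them the array also holds the exact opposite strand, which was well above background on 3 DD and 10 LW arrays, while the MRPL24 probe was so on all 21.

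MRPL40 and MRPL4 had spellings of opposite sign. The probe in capitals had 0.74, whereas the mrpl40 probe O12799 had −0.21 ± 0.10 (SE, limma, adjusted p = 0.134). The latter ran from 10.8 to 11.5 in DD pigs and from 11.0 to 11.7 in LW pigs. Adding brightness gave 0.0008 and −0.04. The mRpL4 probe had 0.45 ± 0.40 and MRPL4 had −0.20 ± 0.11, neither past the threshold. However, the mRpL4 probe was well above background on only 2 DD arrays and 1 LW array. Its opposite sign therefore rests on a signal near background. When names were matched without regard to capitals, MRPL40 had 0.26 and did not pass the threshold (limma, adjusted p = 0.0791).

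**Figure D5:**
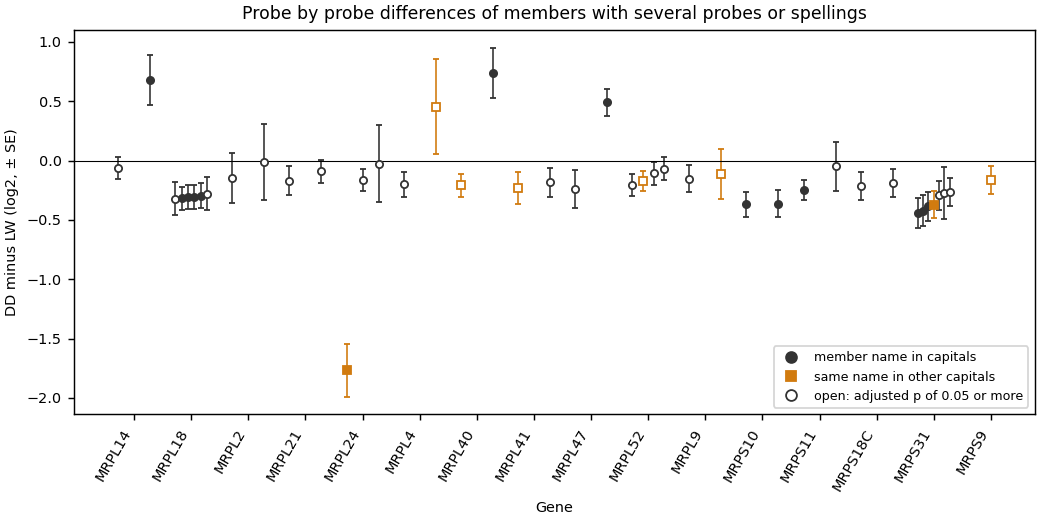
Difference between breeds (DD minus LW, log2, with SE) of each probe for members with several probes and for names that also occur in other capitals. Circles are probes named in capitals, squares the other spellings, and filled symbols passed an adjusted p of 0.05. The Mrpl24 square at −1.77 lies apart from the MRPL24 circles near 0, and MRPL14, MRPL4, MRPL40 and MRPL47 have symbols on both sides of 0. The MRPL4 square was well above background on only 2 DD arrays and 1 LW array, and the upper MRPL47 circle on none.

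Other genes of the same machinery gave the following counts, beside 9.80% lower and 11.4% higher over all features. Of 5 tested subunits that carry other names, 2 were lower, PTCD3 with −0.36 ± 0.10 (SE, limma, adjusted p = 0.0177) and ICT1 with −0.34 ± 0.10 (SE, limma, adjusted p = 0.0275). ICT1, now a ribosomal subunit, descends from a release factor. Of 13 translation factors and partners, 0 were called (limma, adjusted p, median −0.09), and at an unadjusted p under 0.05 there was 1 lower and 1 higher. The lower one was MTRF1, a release factor, at −0.31 ± 0.11 (SE, limma, adjusted p = 0.054). Of these 13 genes, GFM1 was well above background on 0 arrays and GFM2 on only 1 DD array and 1 LW array. Of 17 genes for assembly of the ribosome and modification of its RNA, 1 was lower and 1 higher (median −0.07). Among the 17, GTPBP5 was well above background on only 1 DD and 0 LW arrays. Mpv17l2, which takes part in assembly, had 0.73 ± 0.22 (SE, limma, adjusted p = 0.0269) and −0.02 with brightness. MTERFD2, which guides an RNA methyltransferase to the ribosome, had −0.35 ± 0.11 (SE, limma, adjusted p = 0.0329), but was well above background on 0 DD and 3 LW arrays. TFAM, which packs mitochondrial DNA and helps to start its transcription, had −0.46 ± 0.15 (SE, limma, adjusted p = 0.0333) and −0.14 with brightness. PTCD3, ICT1 and MTERFD2 did not pass the threshold with brightness either.

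The cytosolic ribosome and the products of the mitochondrial one were counted in the same way, beside the same 9.80% and 11.4% of all features. Of 74 cytosolic ribosomal proteins, 40 were lower and 0 higher, with a median difference of −0.36, or −0.16 with brightness, when 1 was lower. Scaled to the 75th percentile, 11 were lower and 1 higher, with a median of −0.10 beside −0.14 for the members, so the order of these medians turned with the scaling. Of 59 nuclear subunits of oxidative phosphorylation, 11 were lower and 1 higher, with a median of −0.21, or −0.12 with brightness, when 2 were lower, and −0.11 with the other scaling, when 5 were lower and 2 higher. Of 14 names for proteins encoded in mitochondrial DNA, which the mitochondrial ribosome translates, 0 were lower and 12 higher, with a median of 0.75. With brightness in the model the median was 0.54, with 2 higher, COX1 and COX2, both subunits of cytochrome c oxidase. With the other scaling it was 0.98, with 14 higher. These lists were not tested against the members.

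Markers of blood cells moved with the breeds in part. Over all features, 9.80% were called lower and 11.4% higher. Of 10 T cell markers, 3 were lower, CD3D with −0.58, CD3G with −0.64 and CD8A with −0.77, and the median was −0.44. The log2 of the summed linear level of this list ran from 11.7 to 13.1 in DD pigs and from 12.2 to 13.2 in LW pigs. Of 9 erythroid markers, 3 were higher, alaS2 with 0.75, EPB42 with 1.06 and gata1 with 0.40. The median was 0.40, with 6 markers above 0 and 3 below (AHSP, SLC4A1 and TFRC). The summed level ran from 18.0 to 19.1 in DD pigs and from 17.7 to 19.2 in LW pigs. Of 7 monocyte markers CD163 was lower at −0.72, but 5 markers were above 0 and the median was 0.08. Among those above 0, csf1r had 0.63 (limma, adjusted p = 0.0503). The monocyte sums were 11.2 to 12.7 in both breeds. Of 5 platelet markers, PPBP was lower at −0.94 and TBXA2R higher at 0.51, with sums of 13.3 to 15.0 in DD pigs and of 13.1 to 14.6 in LW pigs. With brightness in the model the T cell values were −0.30, −0.36 and −0.26 and the erythroid values −0.04, 0.06 and 0.14, none past the threshold. In that model CD163 had −0.78 and TBXA2R −0.03, also not past it, while PPBP had −1.94 (limma, adjusted p = 0.000362). None of 5 B cell markers (11.6 to 12.8 in DD and 11.3 to 13.2 in LW pigs) or of 6 neutrophil markers (13.0 to 14.3 and 13.3 to 14.4) was called, and 0 of them had an unadjusted p under 0.05 (limma). Each tested marker was well above background on 9 or more arrays, so none of the lists was absent, and the part of the cell types in the member differences was not tested.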

How the data were processed

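RNA from the blood of 10 DD and 11 LW pigs was labelled with Cy3 and hybridized to one-colour arrays, scanned with Agilent Feature Extraction 10.7.3.1. The deposited log2 values were made by the authors with normexp background correction, log2 scaling and quantile normalization in limma, and were used as they are. The deposited scanner files hold intensity values without normalization between arrays, and flags for signal above background, from which brightness and alternatives were computed. The authors removed further arrays as outliers before deposit. Of the per-sample values in the files, 0 columns lacked a sample. The number of arrays limits the precision. No spot was saturated (0).

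Features are distinct names in the scanner files. The 25% of probes with the lowest mean were left out and the rest averaged by name. The model was fitted with limma 3.58.1 and statmod 1.5.0 in R 4.3.3, for breed and chip. Pigs of the same sow were treated as a block through duplicateCorrelation (consensus correlation −0.11). Tests were by eBayes with Benjamini-Hochberg adjustment over all features. Groups came from the breed in the labels, while litter and chip came from the tables of the study. Named genes are the members past an adjusted p of 0.05, MRPL42, members whose probes had opposite signs with 1 past the threshold, and genes of the other lists past it. Within-chip values come from the same model on 1 chip. Values recomputed from the intensities correlated with the deposited ones at r = 0.998 to 0.999 across probes on each array. The steps were tested on simulated data. Positions are from the RefSeq table of Sscrofa11.1, which held 44 of the 45 symbols. Members and lists were chosen with earlier results of these data known. Alternatives were other normalizations, filters and probe choices, models without sow or chip, with brightness, or with eBayes trend and robust fitting, names matched without regard to capitals (chosen after seeing the data), and leaving out each chip and each pig.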

Additional observations from a re-analysis of the deposited data

How the results depend on the processing

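MRPL42 and MRPL17 kept their direction and stayed past the threshold (limma, adjusted p) in all 14 alternatives and whichever of the 21 pigs was left out, with MRPL42 between −1.51 and −1.28 over the alternatives and between −1.55 and −1.34 over the pigs left out. The 9 lower and 3 higher members did not hold as counts. Lower members numbered 5 when arrays were scaled to the 75th percentile, where 6.40% of all features were lower. There were 2 without the chip term (3.67% of all features) and 3 without chip 2 (8.90%). Without chip 3 there were 2 (0.872%), and with brightness also 2 (1.23%). Higher members numbered 0 without the chip term, 1 without chip 2, 0 without chip 3 and 0 with brightness. Without the sow block, whose consensus correlation was −0.11, there were 7 lower and 3 higher, with MRPL35 and MRPS31 no longer past the threshold. Calls over all features then numbered 5035, against 7313 with the block, so more features passed with it than without it. In the fit without the block 6.96% of all features were lower. Without the filter there were 6 lower and 2 higher, with MRPL35, MRPL49, MRPS26 and MRPS31 no longer past the threshold. In that setting 4.69% of all features were lower. Leaving out 1 pig gave 2 to 13 lower and 0 to 4 higher members. The lower count fell to 2 without LW pig 18 and to 4 without DD pig 23. It fell to 3 without DD pig 21 or LW pig 22. Of all features, 3.78% were lower without LW pig 18 and 5.10% without DD pig 21. The share was 5.70% without LW pig 22 and 6.09% without DD pig 23. The 13 lower members, without DD pig 06, stood beside 16.4%. The higher count fell to 0 without DD pig 21 or LW pig 18. Without LW pig 18 each of the 10 called members besides MRPL42 and MRPL17 lost its call, and without DD pig 21 so did 9 of them, all but MRPS10. MRPS31 lost its call for 14 of the 21 pigs left out, MRPS26 for 9, MRPL35 for 7, MRPL49 for 5, MRPL19 and MRPS24 for 4, MRPL18 for 3, MRPL22 and MRPL40 for 2 and MRPS10 for 1. Over all features the 7313 calls became 4588 without the filter, 1922 without the chip term, 526 without chip 3, 753 with brightness, and 2212 to 11486 with 1 pig left out. The large subunit median was −0.018 with brightness and between −0.22 and −0.12 with 1 pig left out, and the small subunit median between −0.27 and −0.18. MRPL47 turned to −0.033 with an offset of 50, to −0.24 with the filter on signal above background and to −0.24 with the brightest probe, by which choice its dim probe no longer counts. The causes of the other changes were not tested. No paired analysis was possible because the breeds are different pigs from different litters. No DD value of a named member stood apart by Dixon's criterion.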
